A study of Mus musculus with 4 samples.

Results

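The transcripts described here belong to 36 mouse genes of the antioxidant system that is run by the transcription factor NRF2: its regulators, the glutathione and thioredoxin systems, the enzymes that supply them with NADPH, and the superoxide dismutases and catalase. The genes form a list by function, set down when earlier results of these data were known. Every Affymetrix Mouse430_2 probe set whose only gene symbol was one of the 36 was read on its own. That gave 74 probe sets for 32 of the genes, out of 45037 probe sets on the array that were not controls.

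The zymosan group (2 arrays) was bone marrow-derived macrophages of MyD88 -/- genotype given 100 ug/ml zymosan, a particle of yeast cell wall, for 120 min. The unstimulated group (2 arrays) was MyD88 -/- macrophages with no stimulus, taken at 0 min. The titles of these unstimulated arrays carry different tags, LPS and PIC, while both zymosan titles carry ZYM. No unstimulated array with a ZYM title was in the comparison. The unstimulated arrays may thus be the starting points of separate experiments with other stimuli, which their labels do not state. M-CSF, on which macrophages depend for growth, had been given to the marrow cultures as the recombinant human protein over 6 days. MyD88 is the adaptor of most Toll-like receptors, and with no wild-type array in the comparison nothing here shows which differences need its absence. The labels give no strain, sex or age, and are silent on whether the 2 arrays of each group stand for different animals or dishes. A p-value here weighs a difference against array-to-array spread alone, part or all of which may be technical.

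NRF2 is held in the cytoplasm by KEAP1, which passes it to an ubiquitin ligase for destruction. Oxidants and electrophiles modify cysteines of KEAP1, NRF2 then escapes, enters the nucleus and, paired with a small MAF protein, binds antioxidant response elements beside its target genes. Those targets make and recycle glutathione and thioredoxin, the carriers of reducing power that macrophages draw on when they take up particles and make superoxide. An array reads only RNA, and NRF2 is controlled largely as a protein, so the Nfe2l2 and Keap1 transcripts are not a measure of NRF2 activity.

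Short promoter stretches are shown for the genes that passed the test below at their probe set of highest mean and have a motif before a start, with Me1 added because its motif spans the start. They come from RefSeq, build GRCm38.p6, and are written 5′ to 3′ on the strand of the gene. Promoters, taken as 250 bases before to 50 after the start, were at hand for 31 of the 36 genes. Capitals mark the core of the antioxidant response element, TGACNNNGC, or TGANTCA, the motif of AP-1 factors. Both strands were searched, so the first motif also appears as its reverse complement, and the motifs overlap where TGACTCA is followed by GC. Positions count from the transcript start that RefSeq gives for that promoter, which for Osgin1 differs from the start in the RefSeq gene table.
Nfe2l2: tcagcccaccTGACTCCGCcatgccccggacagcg
Srxn1: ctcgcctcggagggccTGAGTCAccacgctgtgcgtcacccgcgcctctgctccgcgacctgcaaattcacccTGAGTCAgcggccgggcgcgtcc
Mgst1: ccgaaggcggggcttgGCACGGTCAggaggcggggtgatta
Sod1: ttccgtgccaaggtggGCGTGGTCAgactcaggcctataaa
Osgin1: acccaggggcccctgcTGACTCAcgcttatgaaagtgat
Me1: tcggccgatgccgccgTGACTCAGC

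The stretch of Nfe2l2 is chr2:75704879-75704913 on the minus strand, with its motif at -240 to -232. That of Srxn1 is chr2:152105406-152105501 on the plus strand, with its AP-1 motifs at -102 to -96 and -45 to -39. Srxn1 also has TGACNNNGC after its start, at 29 to 37, which is not shown. That of Mgst1 is chr6:138140455-138140495 on the plus strand, and that of Sod1 is chr16:90220690-90220730 on the plus strand, both with a motif at -56 to -48. That of Osgin1 is chr8:119437034-119437072 on the plus strand, with its AP-1 motif at -97 to -91, and that of Me1 is chr9:86695912-86695936 on the minus strand. All lie before that transcript start, apart from the end of the Me1 motif, which reaches position 3.

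Over all promoters, 10 of the 31 genes had TGACNNNGC (32.3%), beside 14% of the 27025 genes in the RefSeq table. TGANTCA was found in 5 of the 31 (16.1%), beside 8.97% of all genes. At the probe set of highest mean of each gene, 3 of the 10 were called higher with zymosan (Nfe2l2, Mgst1 and Srxn1), 1 lower (Sod1) and 4 in neither direction (Gclm, Txnrd1, Pgd and Me1), while Prdx1 and G6pdx had no usable probe set. Txnrd1 had dimmer probe sets that were called lower. Of all members with a promoter and a usable probe set, 7 were higher, 4 lower and 17 in neither direction. Over all genes 10.1% were higher and 6.73% lower. A link between motif and call was not tested. A match says only that these letters are there.

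The 4 arrays gave log2 values summarized by RMA, 1 per probe set, with array medians from 4.92 to 4.94. Both zymosan arrays were scanned on 1 day, and scan dates are the only dates used here. Between the unstimulated arrays lay 16 days, and the zymosan arrays followed 153 days after the earlier of them, with a different operator and project on record. The stimulus thus cannot be told apart from the day or the operator, whichever gene is read. Across the 27571 probe sets that were tested, the zymosan arrays correlated at 0.995 and the unstimulated arrays at 0.989, and between groups the correlation was 0.964 to 0.969. Myd88, which is disrupted in all 4 arrays, was at 8.37 and 8.40 with zymosan and at 8.72 and 8.78 in unstimulated cells, which checks no label since the place of its probes relative to the deletion is not known here. The macrophage markers Csf1r, Lyz2 and Cd68 had mean log2 values of 12.89, 14.03 and 13.33 with zymosan, and of 13.30, 14.07 and 13.13 in unstimulated cells. Of the 8 macrophage markers 5 passed the test as lower with zymosan and 0 as higher. The log2 differences of the lower ones were -1.66 for Itgam, -1.10 for Fcgr1, -0.82 for Adgre1, -0.70 for Cd14 and -0.40 for Csf1r. All 5 markers of granulocyte precursors passed the test as higher with zymosan, among them Mpo (9.40-fold). Of these, Ms4a3 was at 3.89 and 4.03 in unstimulated cells. It was tested only because of its zymosan arrays, and so had to differ. Of 8 markers of later neutrophils 6 passed as higher, among them S100a8 (5.62-fold). The others did not pass, with log2 differences of 0.36 for Ltf and -0.73 for Mmp9. The summed linear level of the granulocyte precursor list was 568 to 613 with zymosan and 153 to 158 in unstimulated cells, and that of the later neutrophil list 4630 to 4793 and 1025 to 1104. Of the 8 erythroid markers 2 were kept, Klf1 and Epor, and neither passed the test. The part of these other cells in the results was not tested. In bulk RNA, fewer cells of a type and less RNA per cell cannot be told apart.

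Antioxidant genes differed in both directions on the zymosan arrays. Those that rose included the glutathione synthesis enzyme Gclc, the membrane transferase Mgst1, and the mitochondrial Sod2 (3 of 4 probe sets) and Prdx3. The cystine carrier Slc7a11 was also called higher, but its probe sets reached the test only with their zymosan arrays. Sulfiredoxin (Srxn1) rose at 1 of 4 probe sets and Nfe2l2 at 1 of 2. Those that fell included Keap1, the NRF2 target Osgin1, the peroxiredoxin Prdx4 of the endoplasmic reticulum (3 of 4 probe sets) and 1 of 4 tested probe sets of cytosolic Sod1. The thioredoxin reductase Txnrd1 fell at its 2 dimmer probe sets of 3, while its brightest was on the higher side (0.42) and did not pass. Of the 74 probe sets, 72 were bright enough to be tested (at or above the 40th percentile on 2 arrays or more), and 11 were higher and 10 lower by limma with Benjamini-Hochberg adjusted p under 0.05. Among all probe sets tested, 8.48% were higher and 7.45% lower, 15.9% together. Taking for each gene the probe set of highest mean, 8 of 32 genes were higher and 4 lower, beside 10.1% and 6.73% of all 13222 genes and 16.8% called in either direction. The median difference was 0.03 over the 32 genes and 0.00 over all genes (log2).

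**Figure D1:**
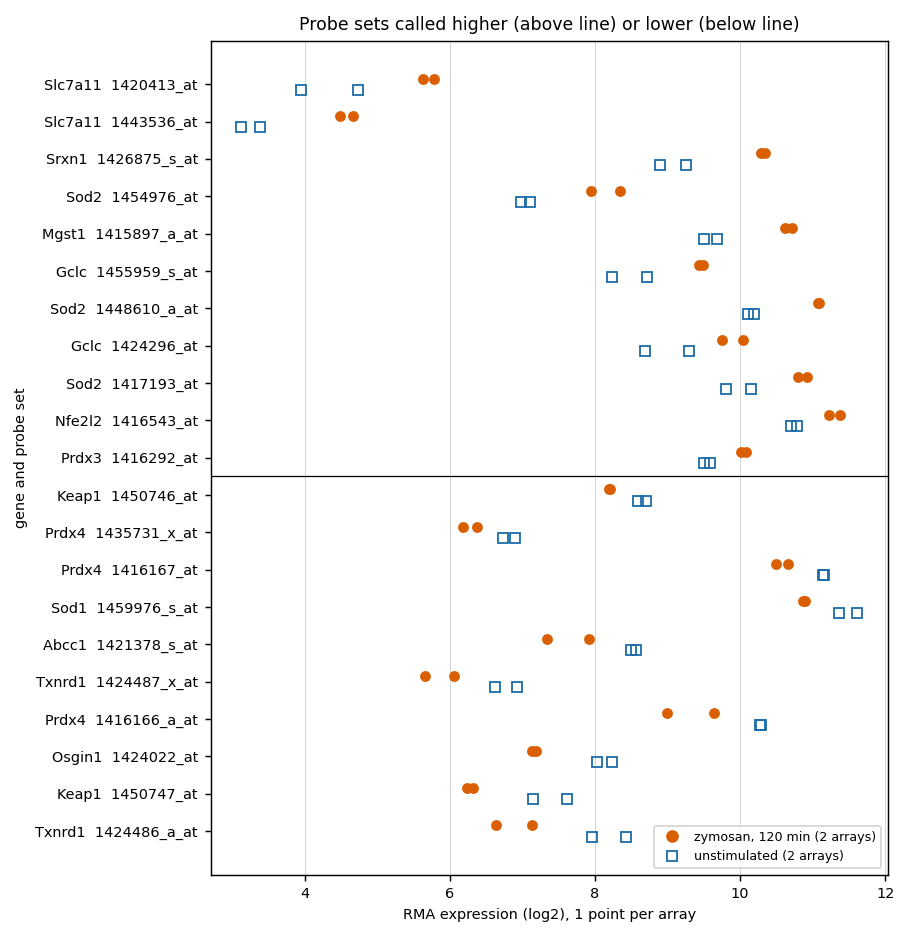
Log2 expression on each array (horizontal axis) of the 21 probe sets that passed the test, 1 row each, sorted by difference. Filled circles are the 2 zymosan arrays and open squares the 2 unstimulated arrays. In no row do the groups overlap, as in none of the 4393 probe sets called on the whole array.

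The number of calls fell when a zymosan array was left out, among all probe sets tested as among the members. Such a fit leaves 1 array in the zymosan group and takes its spread from the unstimulated pair, so its counts are not set against those with all arrays. A fit added once the data had been seen let arrays of 1 scan day share a random effect. It gave 4 higher and 2 lower, beside 741 and 647 of all 27571 probe sets tested. Without zymosan replicate 1 the calls were the dimmer Slc7a11 probe set and 1 of Sod2 as higher and 1 of Abcc1 as lower, and without zymosan replicate 2 the call was 1 of Prdx4 as lower. With the shared day effect they were 1 probe set each of Slc7a11, Mgst1, Srxn1 and Sod2 as higher and of Keap1 and Osgin1 as lower. In both of these fits the Slc7a11 probe set was the dimmer one, which had entered the test only through its zymosan arrays. All 21 kept their direction in each of these fits, and with groups that did not overlap they could not do otherwise.

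Both regulators of the pathway moved, in opposite directions. Nfe2l2, the gene of NRF2, was at 11.23 and 11.38 on the zymosan arrays, against 10.78 and 10.70 on the unstimulated arrays, at its brighter probe set. The zymosan arrays were the higher ones with no overlap, a rise of 1.48-fold (log2 difference 0.56, SE 0.11, adjusted p = 0.0284 by limma). The other Nfe2l2 probe set was at 5.20 and 5.63 with zymosan and at 5.53 and 6.88 in unstimulated cells, where the groups overlapped and the test was not passed (-0.79, adjusted p = 0.271).

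Keap1, the gene of the NRF2 inhibitor, was lower with zymosan at both of its probe sets. One was at 8.20 on each zymosan array, against 8.70 and 8.59 on the unstimulated arrays (-0.44, SE 0.11, adjusted p = 0.0449 by limma). The other was at 6.32 and 6.24 with zymosan, against 7.62 and 7.15 in unstimulated cells. It was 2.15-fold lower (-1.11, SE 0.17, adjusted p = 0.015 by limma), and its zymosan arrays lay closer together than its unstimulated ones.

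Of the 4 genes of glutathione synthesis, Gclc rose at both probe sets and Slc7a11 at its brighter one. Slc7a11 encodes the light chain of the carrier that brings in cystine, from which the cysteine of glutathione is made. The brighter Slc7a11 probe set was at 5.63 and 5.78 with zymosan, against 4.74 and 3.95 in unstimulated cells, a rise of 2.56-fold (1.36, SE 0.26, adjusted p = 0.0246 by limma). Unstimulated 2 lay below the level of the filter (4.36 to 4.39) there, so the size of this rise is uncertain. The unstimulated arrays alone would not have brought this probe set into the test. The other was at 4.49 and 4.67 with zymosan, against 3.39 and 3.13 in unstimulated cells. Both of those unstimulated values lay below that level, so the zymosan arrays are given only as at least 1.14-fold higher. This probe set was tested only because it was high with zymosan, and so had to differ. It is 1 of the 11 counted as higher and supports nothing further.

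Gclc, the catalytic subunit of the enzyme that joins glutamate and cysteine in the limiting step, rose 1.97-fold at 1 probe set. It was at 9.43 and 9.49 with zymosan, against 8.72 and 8.24 in unstimulated cells (0.98, SE 0.18, adjusted p = 0.0207 by limma). At its second probe set it was at 10.04 and 9.76 with zymosan, against 9.30 and 8.69 in unstimulated cells, and only just passed the test (0.90, adjusted p = 0.0487). The groups did not overlap at either, but the unstimulated arrays were 0.48 and 0.61 apart (log2), with unstimulated 1 the higher.

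Gclm, the modifier subunit of the same enzyme, did not pass the test at either probe set. The brighter one was at 10.39 and 10.29 with zymosan, against 10.15 and 9.34 in unstimulated cells. All zymosan values were the higher, yet unstimulated 1 lay close to them, and the difference was 0.59 with a 95% interval from -0.06 to 1.25 (adjusted p = 0.19). Gss, glutathione synthetase, was at 6.78 and 6.93 with zymosan, against 6.45 on each unstimulated array. It passed when 1 probe set stood for each gene (0.41, adjusted p = 0.0473) and not among all probe sets (adjusted p = 0.0623).

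Of the 7 genes that use or recycle glutathione, only Mgst1 passed the test, beside 16.8% of all genes. Mgst1 is a glutathione transferase of microsomal and outer mitochondrial membranes. It was at 10.62 and 10.72 with zymosan, against 9.51 and 9.68 in unstimulated cells, a rise of 2.11-fold (1.08, SE 0.12, adjusted p = 0.00612 by limma). Arrays of a group differed by 0.17 at most, far less than the difference. Granulocyte precursors also express Mgst1, and their markers were higher on the same arrays, as given above. A second Mgst1 probe set lay below the filter on all 4 arrays.

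Gsr, which returns oxidized glutathione to its reduced form, had means of 8.80 with zymosan and 8.80 in unstimulated cells at its brighter probe set, and the interval of the difference ran from -0.37 to 0.36. The selenium-dependent peroxidase Gpx1 was at 12.48 and 12.68 with zymosan, against 12.79 and 13.00 in unstimulated cells (-0.31, interval -0.65 to 0.02, adjusted p = 0.175). Gpx4, the peroxidase that acts on membrane lipids, had differences of 0.11 and 0.19 at its probe sets. The cytosolic transferases Gstm1, Gstp1 and Gsta4 had differences from -0.21 to 0.49 over 6 probe sets. At the brightest Gstm1 probe set, which zymosan arrays read as 9.85 and 9.89, unstimulated 1 was at 9.75 and unstimulated 2 at 9.02. Gstm1 belongs to a family of near-identical genes, and probe sets with names ending in x_at can read several of them.

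**Figure D2:**
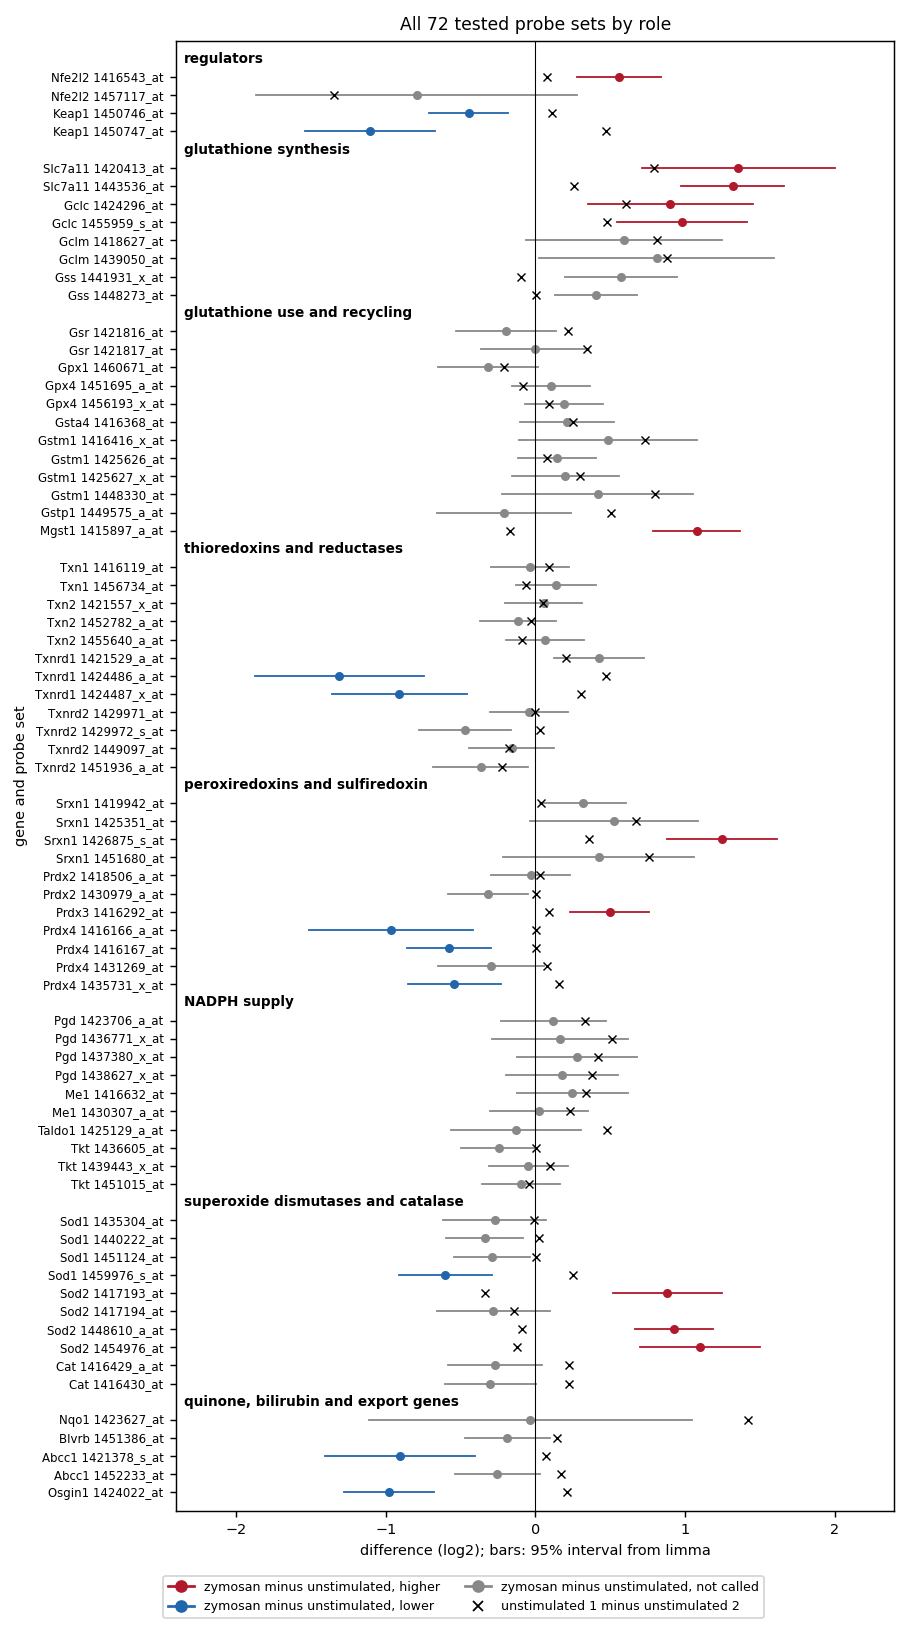
Difference of zymosan minus unstimulated arrays (log2, horizontal axis) for the 72 tested probe sets, ordered by the role of the gene, with the 95% interval from limma as a bar. Red marks probe sets called higher (11), blue lower (10) and grey neither (51), and black crosses show unstimulated 1 minus unstimulated 2.

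Of the 12 probe sets of the thioredoxin genes, 0 passed as higher and 2, both of Txnrd1, as lower. Among all probe sets tested 8.48% were higher and 7.45% lower. Thioredoxin itself, Txn1, was at 12.76 and 12.73 with zymosan and at 12.82 and 12.73 in unstimulated cells at its brighter probe set, with an interval of the difference from -0.30 to 0.23. Mitochondrial thioredoxin, Txn2, had differences from -0.11 to 0.06 at its 3 probe sets. Its partner, the mitochondrial reductase Txnrd2, had differences from -0.47 to -0.04 at 4 probe sets, all on the lower side and none past the test.

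Txnrd1, the cytosolic selenoenzyme that reduces thioredoxin with NADPH, gave opposite readings at its 3 probe sets. The brightest was at 11.44 and 11.54 with zymosan, against 11.17 and 10.97 in unstimulated cells. Its zymosan arrays were the higher, but the test was not passed (0.42, SE 0.12, adjusted p = 0.0714 by limma). The second was at 7.14 and 6.64 with zymosan, against 8.43 and 7.96 in unstimulated cells, and was 2.48-fold lower (-1.31, SE 0.23, adjusted p = 0.0191 by limma).

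The dimmest Txnrd1 probe set was at 6.07 and 5.66 with zymosan, against 6.92 and 6.62 in unstimulated cells, and was 1.88-fold lower (adjusted p = 0.0277 by limma). In none of the 3 did the groups overlap. The gene has 3 starts in the RefSeq table, and which transcripts each probe set reads was not worked out here. With all arrays, no member gene had probe sets called in both directions, and 7 genes had some called and some not.

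**Figure D3:**
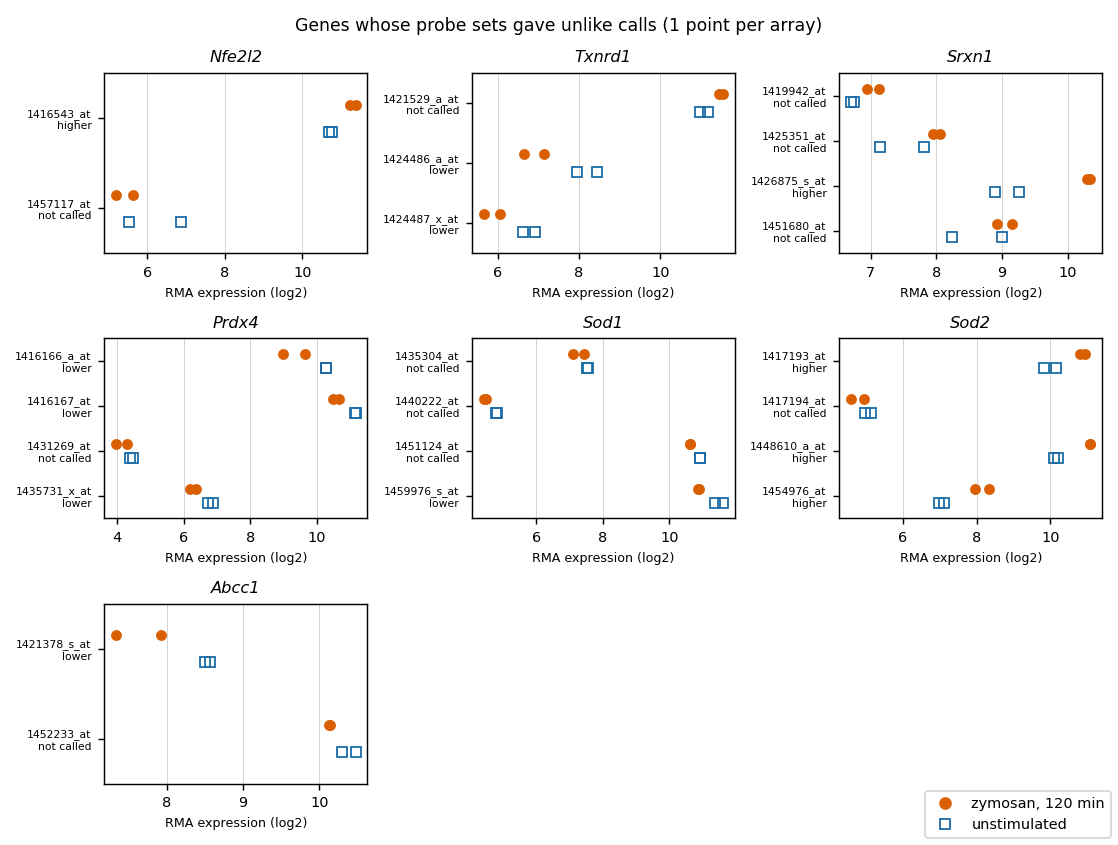
Log2 expression on each array (horizontal axis) at every tested probe set of the 7 genes whose probe sets gave unlike calls, with zymosan arrays as filled circles and unstimulated arrays as open squares. Txnrd1 and Sod2 each hold probe sets whose zymosan arrays lie on opposite sides of the unstimulated ones.

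Sulfiredoxin and the peroxiredoxins split. Srxn1, the enzyme that repairs peroxiredoxins whose active cysteine has been over-oxidized, was at 10.35 and 10.29 with zymosan, against 9.25 and 8.89 in unstimulated cells, at its brightest probe set. That was a rise of 2.38-fold (1.25, SE 0.15, adjusted p = 0.00748 by limma). At the other 3 probe sets the differences were 0.32, 0.42 and 0.53, all upward and none past the test. At 2 of these unstimulated 1 was 0.67 and 0.76 above unstimulated 2, more than the difference with zymosan. The promoter stretch of Srxn1 shown above holds both of its AP-1 motifs.

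Prdx3, the mitochondrial peroxiredoxin, was at 10.01 and 10.07 with zymosan, against 9.59 and 9.50 in unstimulated cells. It rose 1.41-fold with no overlap (0.50, SE 0.11, adjusted p = 0.0337 by limma). Prdx4, which removes peroxide in the endoplasmic reticulum and helps to fold proteins there, was lower at 3 of 4 probe sets. The brightest was at 10.66 and 10.49 with zymosan, against 11.16 and 11.15 in unstimulated cells (-0.58, SE 0.11, adjusted p = 0.0261 by limma). A second was at 8.99 and 9.65 with zymosan, against 10.28 on each unstimulated array (-0.96, adjusted p = 0.0401), and here the zymosan arrays were the ones that lay apart.

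Cytosolic Prdx2 was at 10.60 and 10.50 with zymosan and at 10.60 and 10.57 in unstimulated cells at its brighter probe set, where the groups overlapped (interval of the difference -0.30 to 0.23). Prdx1 had 5 probe sets, each shared with a second symbol, and no value is given for it. Prdx5, Prdx6 and G6pdx had no probe set named for them here.

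The genes that feed the system with NADPH did not pass the test at any of their 10 probe sets, beside 15.9% passing among all probe sets tested. Pgd, the second NADPH-forming enzyme of the pentose phosphate pathway, was at 12.28 and 12.33 with zymosan and at 12.39 and 11.88 in unstimulated cells at its brightest probe set by mean. Both zymosan arrays fell between the unstimulated ones. The same held for Taldo1, transaldolase, at 11.48 on each zymosan array and at 11.85 and 11.37 in unstimulated cells. Tkt, transketolase, had differences from -0.24 to -0.05 at 3 probe sets, and Me1, malic enzyme, 0.25 and 0.02. The widest interval among the 10 ran from -0.29 to 0.62, for Pgd.

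The superoxide dismutases moved apart. Sod2, the manganese enzyme of mitochondria and also a known target of NF-kB, was at 11.07 and 11.08 with zymosan, against 10.11 and 10.19 in unstimulated cells. It rose 1.90-fold (0.93, SE 0.10, adjusted p = 0.00669 by limma). A second probe set was at 10.79 and 10.93 with zymosan, against 9.81 and 10.14 in unstimulated cells (0.88, adjusted p = 0.0173). Another was at 7.94 and 8.34 with zymosan, against 6.98 and 7.10 in unstimulated cells (1.10, adjusted p = 0.0125).

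In these 3 Sod2 probe sets unstimulated 2 was the higher of its pair, unlike in most other members. The fourth, near the filter, was at 4.59 and 4.94 with zymosan, against 4.98 and 5.12 in unstimulated cells (-0.28, adjusted p = 0.27).

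Sod1, the copper and zinc enzyme of the cytosol, was below its unstimulated level at all 4 tested probe sets, and 1 passed. That one was at 10.90 and 10.87 with zymosan, against 11.61 and 11.36 in unstimulated cells (-0.60, SE 0.13, adjusted p = 0.0313 by limma), 1.52-fold lower. The other bright one was at 10.61 and 10.63 with zymosan, against 10.91 on each unstimulated array, and did not pass (-0.29, adjusted p = 0.116). Catalase, Cat, had differences of -0.27 and -0.30, with zymosan arrays below unstimulated ones and neither past the test (adjusted p = 0.211 and 0.159).

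Of the remaining NRF2 targets, Osgin1 fell at its only probe set and Abcc1 at 1 of 2. Osgin1, an oxidative stress-induced growth inhibitor, was at 7.19 and 7.13 with zymosan, against 8.24 and 8.03 in unstimulated cells, and was 1.97-fold lower (-0.98, SE 0.12, adjusted p = 0.00825 by limma). Abcc1, the pump MRP1 that exports glutathione conjugates, was lower at 1 probe set, at 7.92 and 7.34 with zymosan against 8.57 and 8.50 in unstimulated cells (-0.90, adjusted p = 0.0375). At its brighter probe set the difference was -0.25 and did not pass (adjusted p = 0.194). Blvrb, a reductase of biliverdin and flavins, was at 11.03 and 10.92 with zymosan and at 11.24 and 11.09 in unstimulated cells (-0.19, adjusted p = 0.324).

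Nqo1, the quinone reductase often used as a readout of NRF2, could not be placed. It was at 6.62 and 6.68 with zymosan, while the unstimulated arrays were at 7.40 and 5.97, above and below both. The difference was -0.03 with an interval from -1.12 to 1.05 (adjusted p = 0.971). Against unstimulated 2 alone the value was 0.68 (adjusted p = 0.0233) and against unstimulated 1 alone -0.75 (adjusted p = 0.02), in both fits with the spread of the zymosan pair.

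That gap between the unstimulated arrays ran through the antioxidant genes. Unstimulated 1 was the higher of the pair at 55 of the 72 member probe sets (76.4%), beside 52.3% of all probe sets tested, with a median of 0.10 beside 0.01 (unstimulated 1 minus unstimulated 2, log2). The largest gaps were those of Nqo1 at 1.42, of the dimmer Nfe2l2 probe set at -1.35, and of Gclm at 0.88 and 0.81. Probe sets of 1 gene read the same RNA and are not independent. The difference with zymosan was larger in size than the unstimulated gap at 48 of 72 (66.7%), beside 59.2% of all. It was so at each of the 21 called, but also at each of the 4393 called among all probe sets tested. That trait thus comes with passing the test and says nothing of the members. The groups did not overlap at 56 of 72, beside 60.6% of all probe sets tested.

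**Figure D4:**
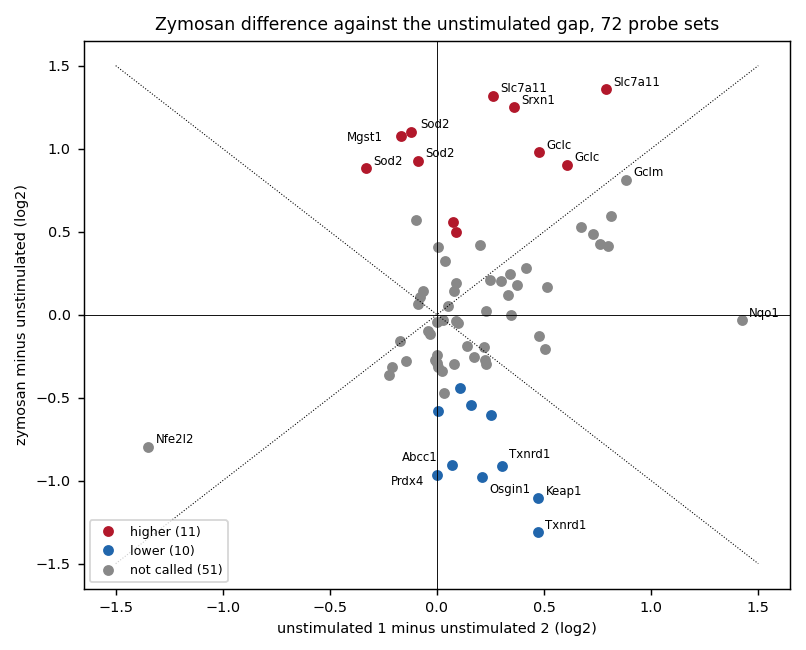
Zymosan minus unstimulated (vertical axis) against unstimulated 1 minus unstimulated 2 (horizontal axis), both in log2, for the 72 tested probe sets. Points above and below the crossed dotted lines, where both differences are equal in size, have a zymosan difference larger than the gap. All 21 called probe sets (red and blue) do, as do all 4393 called on the whole array. Nqo1 lies at a gap of 1.42 with a difference of -0.03.

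Leaving out an unstimulated array shifted the median of the members. The median difference of the member probe sets was 0.07 without unstimulated replicate 1, beside 0.00 over all probe sets tested. It was -0.07 without unstimulated replicate 2, beside -0.01 over all. Without unstimulated replicate 1 the differences were up to 1.25 for Gclm, and 0.85 and 0.81 at the brighter 2 probe sets of Gstm1. They were 0.86 and 0.80 at 2 further ones of Srxn1, 0.68 for Nqo1 and 0.52 at the brightest of Txnrd1. The dimmer Nfe2l2 probe set was at -1.47 in that fit, opposite in sign to the brighter one. Txnrd1 also had probe sets of opposite signs. The difference of the dimmer Nfe2l2 probe set was -0.12 without unstimulated replicate 2, and that of Nqo1 was -0.75. Called without either unstimulated array, in the same direction, were probe sets of Gclc, Mgst1, Srxn1 and Sod2 as higher. Those of Keap1, Osgin1, Prdx4 and Txnrd1 were called as lower. Slc7a11 was called higher too, but its probe sets reached the test only with their zymosan arrays, so this lends it no support. Both fits take their spread from the zymosan pair alone, and Nqo1 was called in both with opposite signs.

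**Figure D5:**
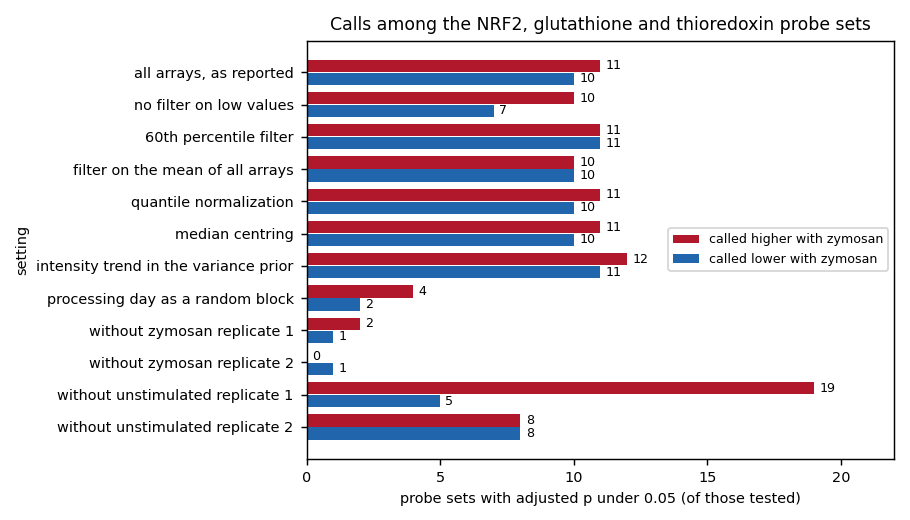
Number of member probe sets with adjusted p under 0.05 (horizontal axis), higher (red) and lower (blue) with zymosan, in each fit (vertical axis). Processing day in the figure is the scan day. With all arrays the counts were 11 and 10 of 72, beside 8.48% and 7.45% of all probe sets tested. Fits without 1 array leave 1 array in a group, so their bars are not set against that share.

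A wider list of 65 genes of the same pathway, listed by function, also held more higher than lower calls. Of 61 that could be tested, 10 were higher and 3 lower, beside 10.1% and 6.73% of all genes, with a median of 0.10 beside 0.00. Hmox1, heme oxygenase and a classic NRF2 target, was at 12.15 and 12.10 with zymosan, against 11.30 and 10.81 in unstimulated cells, a rise of 2.10-fold (adjusted p = 0.0128). Maff, 1 of the small MAF partners of NRF2, was at 7.64 and 7.67 with zymosan, against 5.50 and 6.07 in unstimulated cells, and rose 3.66-fold (adjusted p = 0.0039). Sqstm1, the p62 protein that can draw KEAP1 into autophagy, rose 1.76-fold (adjusted p = 0.0208).

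The other genes of the wider list that rose at least 1.5-fold were Gstm2, a transferase of the same near-identical family as Gstm1 (2.96-fold), the glutathione breakdown genes Ggct (1.94-fold) and Chac2 (1.69-fold), the secreted peroxidase Gpx3 (1.59-fold) and the reductase Txnrd3 (1.57-fold). Gstm2 was at 6.60 and 6.98 with zymosan, against 5.32 and 5.13 in unstimulated cells. Those that fell by as much were the membrane transferase Mgst3, at 9.62 and 9.48 with zymosan against 11.13 and 10.83 in unstimulated cells (2.70-fold lower, adjusted p = 0.00319), and the epoxide hydrolase Ephx1 (log2 difference -0.59). Mgst3 and Mgst1, both membrane transferases, thus had opposite signs. These values are from the brightest probe set of each gene, and Ggct, Sqstm1, Txnrd3 and Mgst3 each had at least 1 further probe set that did not pass the test. Fewer passed without either zymosan array, as over all genes. With the scan day as a random effect 4 were higher and 1 lower, beside 453 and 307 of all 13222 genes.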

How the data were processed

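RNA was measured on 4 arrays, 2 with zymosan and 2 unstimulated, grouped by their labels. The authors deposited log2 values. RMA, which corrects background, equalizes arrays and summarizes probes, is the method the submitters' processing notes name. Its version is not given in the sources used here, and neither is the set of arrays it was run on. The deposited scanner settings files, of other content (no expression values), gave chip type and scan day. Gene symbols came from the platform annotation. After 64 controls were set aside, 34945 had 1 symbol, 932 several and 9160 none. Those reaching the array's 40th percentile in at least 2 arrays were kept (27571).

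Differences are zymosan minus unstimulated, tested with lmFit and eBayes (limma 3.58.1, R 4.3.3), 2-sided, with p-values adjusted by Benjamini-Hochberg across the 27571 or, for counts of genes and for the wider list, over 13222 genes at their probe set of highest mean. Single values come from the probe set fit unless stated. SE is limma's, and intervals are 95%. An exact permutation test of 2 against 2 has a smallest p of 0.333, and the number of arrays limits precision. The scripts were tested on simulated data. Members, lists, motifs and the naming rule (all members, and wider-list genes called and 1.5-fold apart) were chosen with earlier results of these data known. Alternatives were filters, normalization, variance prior, day block, probe set averaging and leaving out each array.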

Additional observations from a re-analysis of the deposited data

How the results depend on the processing

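Counts of calls held within 1.5 times under other filters, quantile normalization, median centring and an intensity trend. They fell with a day effect or without either zymosan array, as did calls over all probe sets and genes. A fit chosen after seeing the data let arrays of 1 scan day share a random effect. It called 4 member probe sets higher and 2 lower, beside 741 and 647 of all 27571. Of the member genes 3 were higher and 1 lower, and of the wider list 4 and 1, beside 453 and 307 of all 13222 genes. The planned estimate of the within-day correlation could not be fitted with 4 arrays, so it was taken from the array pairs (0.54). Leaving out each array in turn gave 0 to 19 higher and 1 to 8 lower member probe sets, 0 to 12 higher and 0 to 6 lower member genes, and 2 to 15 higher and 1 to 6 lower genes of the wider list. Calls over all probe sets and over all genes also differed widely between these fits, so the ranges say nothing of the members alone. Fits without 1 zymosan array take their spread from the unstimulated pair, those without 1 unstimulated array from the zymosan pair. Each leaves 1 array in a group, so the counts are not set against those with all arrays. Averaging the probe sets of a gene gave 7 higher and 6 lower member genes, with a median difference of -0.07. It gave 10 higher and 5 lower genes in the wider list. Over all 13222 genes it gave 1143 higher and 1105 lower, with a median of -0.02. No paired analysis was possible because the labels give no replicate numbers shared between groups.

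Filters, the intensity trend and the day effect do not alter a difference. No called probe set changed direction in any fit, and with no overlap none could when an array was left out. Among uncalled ones, median centring turned a Gsr difference to 0.0064, and leaving out an array turned that one (-0.18 to 0.17) and those of Me1 (-0.091 to 0.14), Prdx2 (-0.083 to 0.019), Gstp1 (-0.46 to 0.042), Txn1 (-0.080 to 0.0092), Taldo1 (-0.37 to 0.11), Tkt (-0.10 to 0.00069), Nqo1 (-0.75 to 0.68) and 3 of Pgd (-0.048 to 0.28, -0.091 to 0.42 and -0.011 to 0.36). The cause was not tested.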
